A study of Mus musculus with 10 samples.

Results

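The suppressive mediators described here are the secreted, enzymatic and matrix-bound products through which regulatory T cells (Treg cells) restrain other cells, namely Il10, Tgfb1, Ebi3, Fgl2, Entpd1, Nt5e, Areg, Lgals1, Itgb8 and Penk. They were found as all probe sets, the groups of array probes summarised into 1 value, whose platform annotation names 1 of these 10 genes. This gave 16 of the 45037 probe sets tested, and covered 9 of the 10 genes, out of 18193 genes measured in all. The annotation used names no probe set for Areg, the epidermal growth factor-like ligand amphiregulin, and it was not analysed here. No filter on low values was applied, so all 16 probe sets stayed in every comparison.

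RNA came from CD4+CD25+ T cells (labelled Treg cells) taken from the combined lymph nodes of BALB/c mice aged 17 to 19 days. Mice were homozygous (me, 3 arrays) or heterozygous (he, 3 arrays) for SHP-1 knockout, or wild type (WT, 4 arrays), and 1 Affymetrix array was hybridised per sample. SHP-1 is a tyrosine phosphatase encoded by Ptpn6 that damps receptor signalling in blood cells, and mice without it are called motheaten and develop myeloid inflammation. The labels name no cell-specific deletion, so the loss was not limited to Treg cells. Cells were taken with an isolation kit and were neither treated nor cultured, and RNA was amplified from 20 ng before labelling 10 ug of product. Replicates are labelled biological, with no word on separate animals or pools, so p-values measure the spread between these samples.

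Treg cells act on their neighbours by several routes. They release the cytokines interleukin 10, transforming growth factor beta and interleukin 35, whose Ebi3 chain is shared with interleukin 27. They carry 2 surface enzymes, CD39 (Entpd1) and CD73 (Nt5e), that act in sequence to turn extracellular ATP into adenosine. They also display integrin alpha v beta 8, which frees transforming growth factor beta from its latent form, and secrete galectin 1, fibrinogen-like protein 2 and, in some Treg populations, enkephalin peptides made from the Penk precursor. The comparisons below show what happened to these transcripts when 1 or both copies of Ptpn6 were lost.

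The proximal promoters of Fgl2 and Ebi3 are shown because, with Penk, these genes stood furthest from WT in me cells. RefSeq promoter entries on GRCm38.p6 were matched for 7 of the 10 genes, and each window holds the 250 bases before the start site. The Fgl2 window lies on the plus strand at chr5:21372423-21372672. In it, capitals mark a STAT-type motif, TTCNNNGAA, whose first base lies 36 bases before the start site, and an AP-1 motif, TGANTCA, that begins 16 bases before it. The Ebi3 window lies on the plus strand at chr17:55952373-55952622 and has none of the 6 motifs searched.
Fgl2: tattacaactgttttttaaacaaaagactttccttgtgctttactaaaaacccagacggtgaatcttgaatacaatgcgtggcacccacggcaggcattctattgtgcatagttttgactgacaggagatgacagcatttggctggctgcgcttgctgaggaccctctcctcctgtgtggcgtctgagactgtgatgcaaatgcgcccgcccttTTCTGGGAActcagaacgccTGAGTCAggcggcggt
Ebi3: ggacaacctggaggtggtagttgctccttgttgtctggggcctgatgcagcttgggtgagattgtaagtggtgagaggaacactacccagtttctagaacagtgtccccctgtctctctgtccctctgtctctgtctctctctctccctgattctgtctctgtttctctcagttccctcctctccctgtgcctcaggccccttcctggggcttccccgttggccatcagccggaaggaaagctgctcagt
Both strands were searched. Of 32851 promoter windows of the same length, 7.02% hold the STAT-type motif and 6.75% the AP-1 motif. The others were the cyclic AMP response element TGACGTCA (1.55% of windows), the forkhead motif GTAAACA (3.17%), the CCAAT box CCAAT (33.9%) and the TATA box TATAAA (12.4%). CCAAT boxes were found in the windows of Entpd1 and Itgb8, the response element and a TATA box in that of Areg, and none of the 6 in those of Tgfb1 and Nt5e. These are matches of letters only.

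Ptpn6 itself followed the labels. At its dimmer probe set, 1460188_at, it read 8.05, 8.31 and 8.17 in me, 8.75, 8.71 and 8.98 in he, and 9.22, 9.08, 9.62 and 9.13 in WT (normalised log2 intensity), with no overlap between genotypes. It was not called by limma over all probe sets, with an adjusted p of 1.00 for me against WT (0.0900 with array set, described next, as a block). The Treg marker Foxp3 averaged 11.14 ± 0.45 in me, 11.18 ± 0.38 in he and 11.03 ± 0.38 in WT (SD, n = 3, 3 and 4), and Il2ra, which encodes CD25, averaged 10.16 ± 0.14, 10.50 ± 0.13 and 10.39 ± 0.20 in the same order. The arrays fell into 2 sets by correlation over all probe sets that cut across genotype. Set A held me 1, me 3, he 1, WT 1 and WT 2, and set B held me 2, he 2, he 3, WT 3 and WT 4. Pearson r across probe sets, which are not independent of each other, lay between 0.970 and 0.996 for arrays of 1 set and between 0.854 and 0.944 for arrays of different sets. Neither labels nor headers say what the sets are. The Y-linked gene Eif2s3y was high in me 1, me 2, WT 2 and WT 4, and Xist, which marks female cells, in me 3, all 3 he arrays, WT 1 and WT 3. Since all he arrays had high Xist, sex and genotype are partly confounded in comparisons with he.

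Of the 9 measured mediators, none passed the test in any comparison, and neither did Ptpn6, the gene that was lost. At an adjusted p under 0.05 the share of all probe sets called was 0% for me against WT, 0% for he against WT and 0% between me and he (limma, Benjamini-Hochberg over 45037 probe sets). Of the 16 mediator probe sets, 10 were higher and 6 lower in me than in WT, with a median difference of 0.03 (log2) against -0.00014 over all probe sets, of which 49.9% were higher. That split moved with the scaling, as did that of all probe sets, of which 22484 of 45037 were higher after quantile normalisation. Without normalisation 7 mediator probe sets were higher and 9 lower, beside 18267 of 45037 higher. After centring on the array median 8 were higher and 8 lower, beside 23388 of 45037 higher. At an unadjusted p under 0.05, 0 of the 16 passed for me against WT, beside 0.622% of all probe sets. In bulk RNA, fewer cells of a type and less RNA per cell cannot be told apart, for these and all values below.

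**Figure D1:**
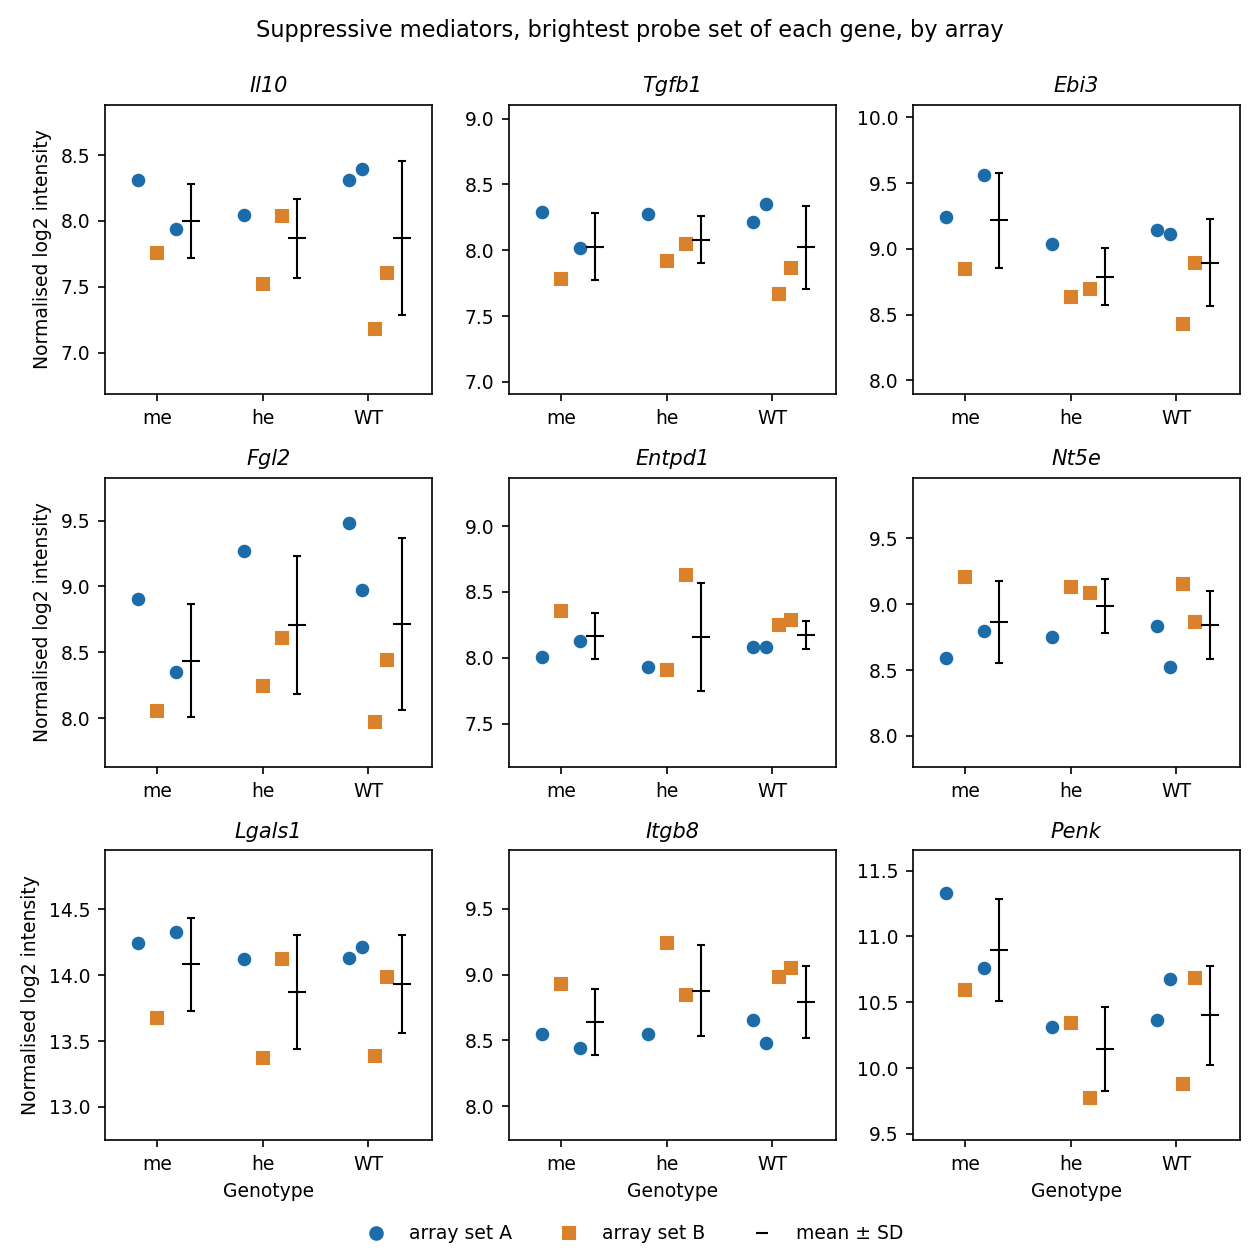
Normalised log2 intensity of the brightest probe set of each of the 9 measured mediators in every array, by genotype (me, he, WT). Points are arrays, circles of set A and squares of set B, and the bar beside each group is the mean ± SD (n = 3, 3 and 4). For Penk the 3 me arrays (10.59 to 11.33) lie above the 3 he arrays (9.77 to 10.34), and for Ebi3 and Nt5e the symbols separate by array set.

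Penk encodes proenkephalin, the precursor of opioid peptides (1427038_at, gene at chr4:4133536-4138815 on GRCm38.p6). It read 11.33, 10.59 and 10.76 in me arrays 1 to 3, 10.32, 10.34 and 9.77 in he arrays 1 to 3, and 10.37, 10.67, 9.88 and 10.68 in WT arrays 1 to 4 (normalised log2 intensity). Arrays me 1 and me 3 were above every WT array, me 2 lay within the WT range, and all me arrays were above all he arrays. In the deposited linear intensity, before normalisation, the me arrays read 3496, 1266 and 1639, the he arrays 1679, 1030 and 646, and the WT arrays 1781, 1805, 778 and 1489.

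Penk was 0.49 ± 0.25 higher in me than in WT (log2, SE), a 1.41-fold higher level, with a 95% interval of -0.08 to 1.07 and an unadjusted p of 0.0829 (adjusted p 1.00, limma). Between me and he it was 0.75 ± 0.27, or 1.68-fold, with an interval of 0.14 to 1.36 and an unadjusted p of 0.0220 (adjusted p 1.00). Penk was the 1 mediator probe set of 16 with an unadjusted p under 0.05 in that comparison, beside 0.668% of all probe sets, and the 1 whose groups did not overlap, beside 2.72%. The he minus WT difference was -0.26 ± 0.25, with an interval of -0.83 to 0.32. Folds here are on the log2(intensity + 32) scale, which understates the change of dim probe sets.

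Part of the Penk spread followed array set and sex. With array set as a block the me minus WT difference was 0.44 ± 0.22 (interval -0.06 to 0.95), and the difference between set means was 0.53 within set A and 0.31 within set B, which holds 1 me array. Among arrays with high Eif2s3y, Penk read 11.33 and 10.59 in me and 10.67 and 10.68 in WT. Among arrays with high Xist it read 10.76 in me, 10.32, 10.34 and 9.77 in he, and 10.37 and 9.88 in WT. With array set and sex both as blocks the me minus WT difference was 0.35 ± 0.17 (interval -0.03 to 0.73), the me minus he difference was 0.30 ± 0.21 (interval -0.20 to 0.79), and he minus WT was 0.05 ± 0.18 (interval -0.38 to 0.48). The difference between me and he without sex as a term, given above, was thus larger. Leaving out me 1 gave a me minus WT difference of 0.28, and leaving out WT 3 gave 0.32.

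Ebi3 encodes the beta chain shared by interleukins 27 and 35 (1449222_at, chr17:55952623-55957022). It read 9.25, 8.84 and 9.56 in me, 9.04, 8.63 and 8.69 in he, and 9.14, 9.11, 8.43 and 8.90 in WT (normalised log2 intensity). Arrays me 1 and me 3 were the highest of all 10, while me 2 lay within the he and WT ranges. Relative to WT, Ebi3 in me differed by 0.32 ± 0.22 (log2, SE), or 1.25-fold, with an interval of -0.17 to 0.81 and an unadjusted p of 0.172 (adjusted p 1.00, limma). All 5 arrays of set B lay below all 5 of set A, by 0.52 on average. With array set as a block the me minus WT difference was 0.24 ± 0.11, with an interval of -0.01 to 0.50 and an unadjusted p of 0.0615 (adjusted p 0.989, limma), and he minus WT was -0.03 ± 0.11. Without a block, Ebi3 in me minus WT was 0.15 with me 3 left out and 0.17 with WT 3 left out.

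Il10, the interleukin 10 gene, was represented by a single dim probe set that lay below the array median in 3 of 10 arrays (1450330_at, chr1:131019845-131024970). It read 8.31, 7.75 and 7.94 in me, 8.05, 7.52 and 8.04 in he, and 8.31, 8.39, 7.18 and 7.61 in WT (normalised log2 intensity). The 4 WT arrays spanned both the highest and the lowest value of all, so the me and he values fell inside the WT range. In me minus WT, Il10 differed by 0.13 ± 0.30 with an interval of -0.56 to 0.82, and he minus WT was -0.0030 ± 0.30 with an interval of -0.69 to 0.68. Within array sets the direction of me minus WT turned, at -0.23 for set A (2 me and 2 WT arrays) but 0.36 for set B (1 me and 2 WT arrays).

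Tgfb1, which encodes the main latent transforming growth factor beta of T cells, had 2 dim probe sets (chr7:25687002-25705077). At the brighter, 1445360_at, it read 8.29, 7.78 and 8.01 in me, 8.27, 7.92 and 8.05 in he, and 8.22, 8.35, 7.66 and 7.87 in WT. At 1420653_at it read 8.16, 7.62 and 8.34 in me, 8.14, 7.59 and 7.68 in he, and 8.16, 8.46, 7.59 and 7.65 in WT. The genotypes overlapped at both. At 1420653_at the 5 set B arrays, at 7.59 to 7.68, lay below every set A array, at 8.14 to 8.45. The me minus WT differences were 0.0034 ± 0.19 (interval -0.42 to 0.43) and 0.08 ± 0.26 (interval -0.51 to 0.66). With array set as a block they were -0.07 ± 0.09 (interval -0.27 to 0.14) and -0.03 ± 0.08 (interval -0.21 to 0.16). With sex as a further block, me minus he at 1445360_at was -0.33 ± 0.09, with an unadjusted p of 0.00501 (adjusted p 0.756, limma), against -0.05 ± 0.20 with no block. In the same fit me minus he at 1420653_at was -0.0080 ± 0.11 (interval -0.27 to 0.25). This overlaps the interval at 1445360_at, -0.53 to -0.13. At 1445360_at that fit gave -0.10 ± 0.07 for me minus WT and 0.23 ± 0.07 for he minus WT, and all he arrays had high Xist. Of the 16 mediator probe sets, 4 had an unadjusted p under 0.05 there for me minus he (limma). The sex block was added after the data were examined, and the share of all probe sets under 0.05 with it was not counted.

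Fgl2 encodes fibrinogen-like protein 2, whose secreted form binds low-affinity Fc receptors (chr5:21372673-21378386, promoter shown above). At its brighter probe set, 1421855_at, it read 8.91, 8.06 and 8.35 in me, 9.27, 8.24 and 8.60 in he, and 9.48, 8.97, 7.97 and 8.44 in WT (normalised log2 intensity). At 1421854_at, which lay below the array median in 6 of 10 arrays, it read 7.84, 7.31 and 7.26 in me, 8.07, 7.49 and 7.54 in he, and 8.24, 7.96, 7.40 and 7.49 in WT. Both probe sets put the set A arrays of he and WT high, me 1 below them, and me 3 among or below the set B arrays. With no block the me minus WT differences were -0.28 ± 0.38 (interval -1.15 to 0.59) and -0.31 ± 0.24 (interval -0.86 to 0.25), with unadjusted p of 0.484 and 0.244 (adjusted p 1.00, limma). The first was -0.02 with WT 1 left out and -0.09 with me 2 left out.

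Fgl2 in each me array was lower than the mean of the WT arrays of its own set. At the brighter probe set me 2 (8.06) was still above WT 3 (7.97), both of set B. At the brighter probe set, the deviation from the WT mean of the same set was -0.32, -0.15 and -0.88 in me arrays 1 to 3 and 0.04, 0.04 and 0.40 in he arrays 1 to 3, while single WT arrays lay 0.26 and 0.24 to either side of their means. At the dimmer probe set it was -0.26, -0.14 and -0.84 in me and -0.03, 0.04 and 0.09 in he. With array set as a block the me minus WT differences were -0.42 ± 0.20 (interval -0.87 to 0.02), or 1.34-fold lower, and -0.39 ± 0.14 (interval -0.71 to -0.07), or 1.31-fold lower. With me 3 counted in set B, a setting added after seeing the data, the difference at the brighter probe set was -0.13, so its size depends on the placing of that array. With array set and sex as blocks, also added later, the brighter differed by -0.46 ± 0.20 (interval -0.92 to -0.0071). The dimmer then differed by -0.42 ± 0.14 (interval -0.75 to -0.10). With array set alone as the block, the dimmer probe set had an unadjusted p of 0.0235 (adjusted p 0.989, limma). It was the 1 mediator probe set of 16 with an unadjusted p under 0.05 there, beside 4.29% of all probe sets. In that fit 0.00666% of all probe sets, 3 in number, were called for me against WT, none of them a mediator. With me 3 counted in set B, or with sex as a further block, 0 were called. Between me and he the blocked Fgl2 differences were -0.55 ± 0.21 and -0.40 ± 0.16, with unadjusted p of 0.0310 and 0.0316 (adjusted p 0.999, limma). The first was -0.27 with me 3 counted in set B. With sex as a further block the 2 were -0.71 ± 0.25 and -0.52 ± 0.18. With array set alone as the block, both Fgl2 probe sets and Penk, at 0.65 ± 0.24, were under 0.05. They were the 3 mediator probe sets under 0.05 in that comparison, beside 3.21% of all probe sets. The probe sets of Fgl2 read the same RNA and are not separate evidence.

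**Figure D2:**
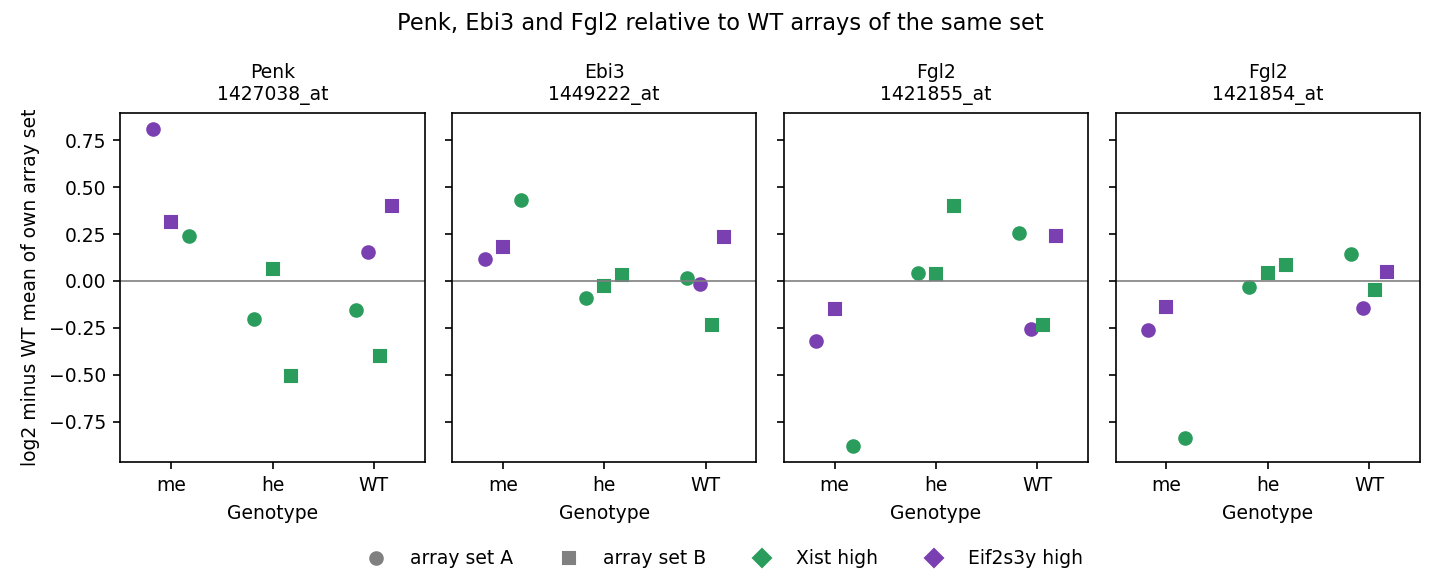
Penk, Ebi3 and both Fgl2 probe sets as log2 intensity minus the mean of the WT arrays of the same array set, by genotype (me, he, WT). Each point is 1 array, with circles for set A and squares for set B, green for high Xist and purple for high Eif2s3y. The 3 me arrays lie above 0 for Penk (0.24 to 0.81) and Ebi3 (0.12 to 0.43) and below 0 for Fgl2 (-0.88 to -0.15 at the brighter probe set). Single WT arrays lie up to 0.40, 0.23 and 0.26 to either side of 0 for these, so some me arrays fall within the WT spread. The genes were chosen after their values were seen.

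Lgals1 encodes galectin 1, a secreted lectin that binds glycans on activated T cells (chr15:78926725-78930465). At 1455439_a_at it read 14.25, 13.68 and 14.33 in me, 14.12, 13.37 and 14.12 in he, and 14.13, 14.22, 13.39 and 13.99 in WT (normalised log2 intensity). At 1419573_a_at it read 11.99, 12.02 and 12.47 in me, 11.87, 11.61 and 12.57 in he, and 11.90, 12.16, 11.71 and 12.34 in WT. Arrays he 2 and WT 3 were low at both probe sets, and the genotypes overlapped. The me minus WT differences were 0.15 ± 0.27 (interval -0.45 to 0.76) and 0.13 ± 0.24 (interval -0.42 to 0.68). The he minus WT differences were -0.06 ± 0.27 (interval -0.67 to 0.55) and -0.01 ± 0.24 (interval -0.56 to 0.54).

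Entpd1 encodes CD39, which removes phosphates from ATP and ADP to leave AMP (chr19:40612366-40741602), and had 3 probe sets. At 1423326_at it read 8.01, 8.35 and 8.13 in me, 7.93, 7.91 and 8.63 in he, and 8.08, 8.08, 8.25 and 8.29 in WT. At 1453586_at the ranges were 7.91 to 8.44 in me, 7.95 to 8.25 in he and 7.72 to 8.29 in WT. The me minus WT differences at these were -0.01 ± 0.18 (interval -0.41 to 0.39) and 0.15 ± 0.17 (interval -0.23 to 0.52).

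At the third Entpd1 probe set, 1450939_at, it read 8.03, 7.83 and 7.85 in me, 8.02, 7.997 and 8.14 in he, and 7.90, 7.88, 7.77 and 7.90 in WT. All he arrays lay above all WT arrays, by a narrow margin, and me overlapped both. The he minus WT difference was 0.19 ± 0.07 (log2, SE), or 1.14-fold, with an interval of 0.02 to 0.36 and an unadjusted p of 0.0325 (adjusted p 1.00, limma). It was the 1 mediator probe set of 16 under 0.05 in that comparison, beside 0.298% of all probe sets, and the 1 without overlap, beside 1.04%. With array set as a block it was 0.20 ± 0.07 with an unadjusted p of 0.0165 (adjusted p 1.00, limma), again the 1 of 16 under 0.05, beside 2.13% of all probe sets, and 0% were called. The other Entpd1 probe sets had he minus WT differences of -0.02 ± 0.18 (interval -0.42 to 0.38) and 0.07 ± 0.17 (interval -0.31 to 0.45). Both intervals hold 0 and 0.19, so these probe sets cannot tell whether the shift was shared. Me minus WT at 1450939_at was 0.04 ± 0.07 (interval -0.13 to 0.21).

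Nt5e encodes CD73, the enzyme that turns AMP into adenosine (chr9:88327609-88372089). At its brightest probe set, 1428547_at, it read 8.59, 9.21 and 8.79 in me, 8.75, 9.13 and 9.09 in he, and 8.83, 8.52, 9.15 and 8.86 in WT. At 1422974_at it read 7.57, 8.12 and 7.70 in me, 7.72, 7.79 and 8.51 in he, and 7.71, 7.72, 8.59 and 8.09 in WT. Both put every set B array above every set A array, and the genotypes overlapped. The dimmest, 1459023_at, ran the opposite way, with every set B array (7.47 to 7.61) below every set A array (7.82 to 7.94). For me minus WT the 3 differed by 0.02 ± 0.18 (interval -0.40 to 0.44), -0.23 ± 0.27 (interval -0.85 to 0.38) and -0.02 ± 0.14 (interval -0.35 to 0.30).

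Itgb8 encodes the beta 8 chain that pairs with alpha v to activate latent transforming growth factor beta (1436223_at, chr12:119162803-119238276). It read 8.55, 8.93 and 8.45 in me, 8.55, 9.24 and 8.85 in he, and 8.66, 8.48, 8.98 and 9.05 in WT. Every set B array (8.85 to 9.24) lay above every set A array (8.45 to 8.66). Its me minus WT difference was -0.15 ± 0.20 (interval -0.61 to 0.31), and with array set as a block -0.07 ± 0.09 (interval -0.28 to 0.13). The he minus WT difference was 0.09 ± 0.20 (interval -0.37 to 0.55).

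**Figure D3:**
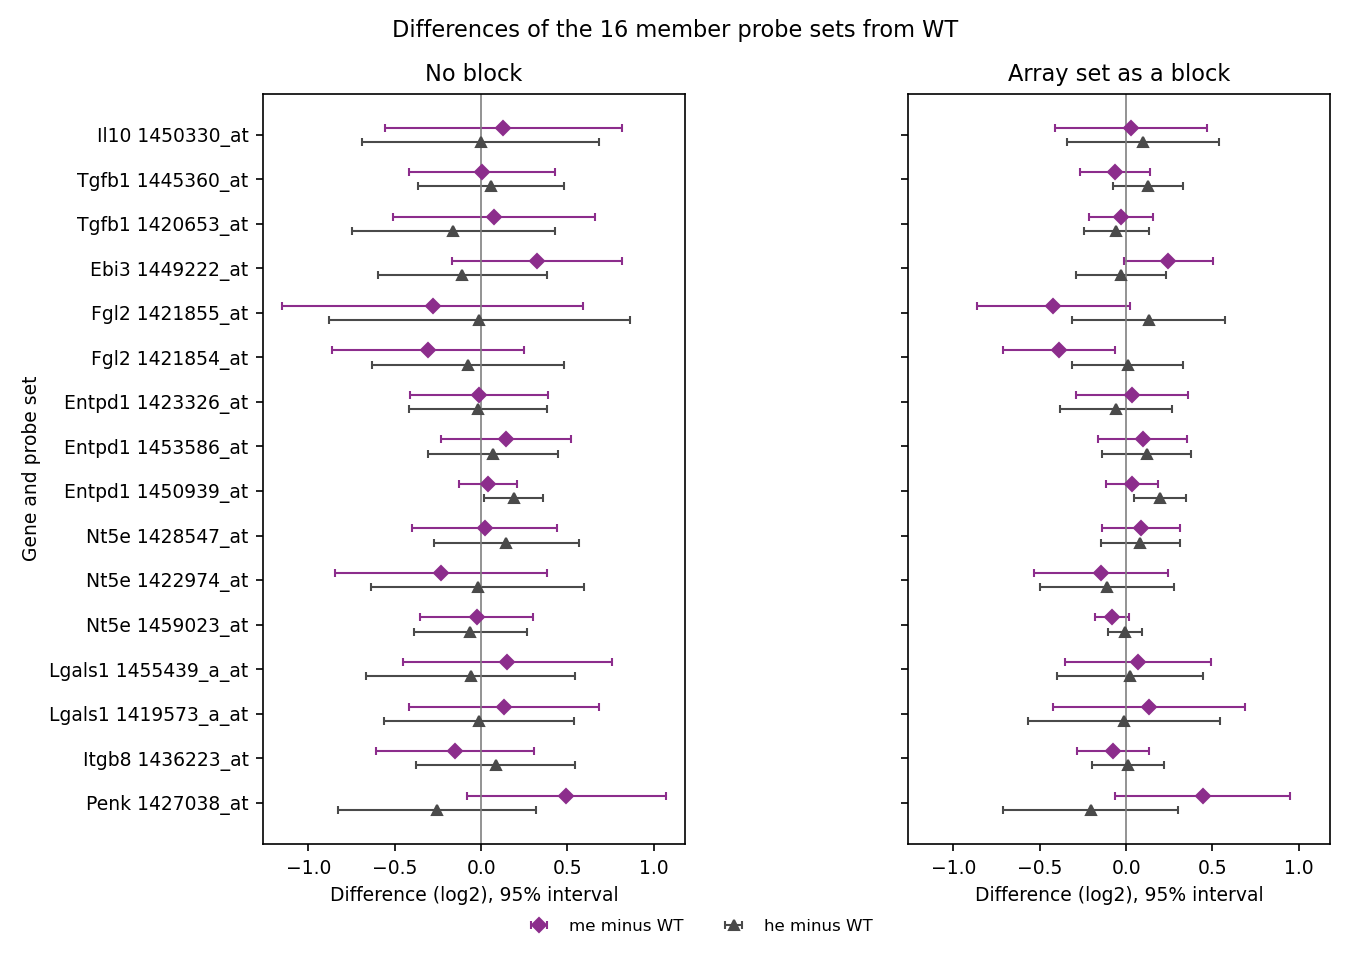
Differences from WT on the log2 scale for the 16 mediator probe sets, with no block on the left and array set as a block on the right. Diamonds are me minus WT, triangles are he minus WT, and bars are 95% intervals of the limma fit. On the left only the Entpd1 probe set 1450939_at (he minus WT, 0.02 to 0.36) has an interval clear of 0, and on the right the dimmer Fgl2 probe set (me minus WT, -0.71 to -0.07) joins it.

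In me against WT 1.64% of all probe sets had groups that did not overlap, and 0 of the 16 mediator probe sets did. The 3 comparisons share arrays, and are given side by side for that reason. Of the 16 probe sets, 5 were higher and 11 lower in he than in WT, where 46.0% of all probe sets were higher. In me against he 9 were higher and 7 lower.

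The mediators also separated by array set, and these values are given with no test since the sets were found from the same arrays. The mean of set B minus that of set A was -0.58 for Il10, -0.52 for Ebi3, -0.73 at the brighter Fgl2 probe set, -0.44 for Penk and 0.47 for Itgb8 (log2). Of the 16 probe sets, 3 were lower in every set B array than in any set A array (Tgfb1 1420653_at, Ebi3 and Nt5e 1459023_at), and 3 were higher (Itgb8 and Nt5e 1428547_at and 1422974_at). Over all probe sets 30.4% were lower and 21.0% higher in this way. Several marker lists also separated by set without overlap. The CD8 and NK cell markers had summed normalised intensities of 7230 to 12315 in set B and 2993 to 4986 in set A. Macrophage and monocyte markers summed to 7007 to 7983 in B and 5552 to 6568 in A. The stromal and endothelial list and the erythroid list were also higher in B. Plasma cell markers went the other way, at 3717 to 3867 in B and 4521 to 5687 in A. The part of these cell types in the mediators' values was not tested.

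**Figure D4:**
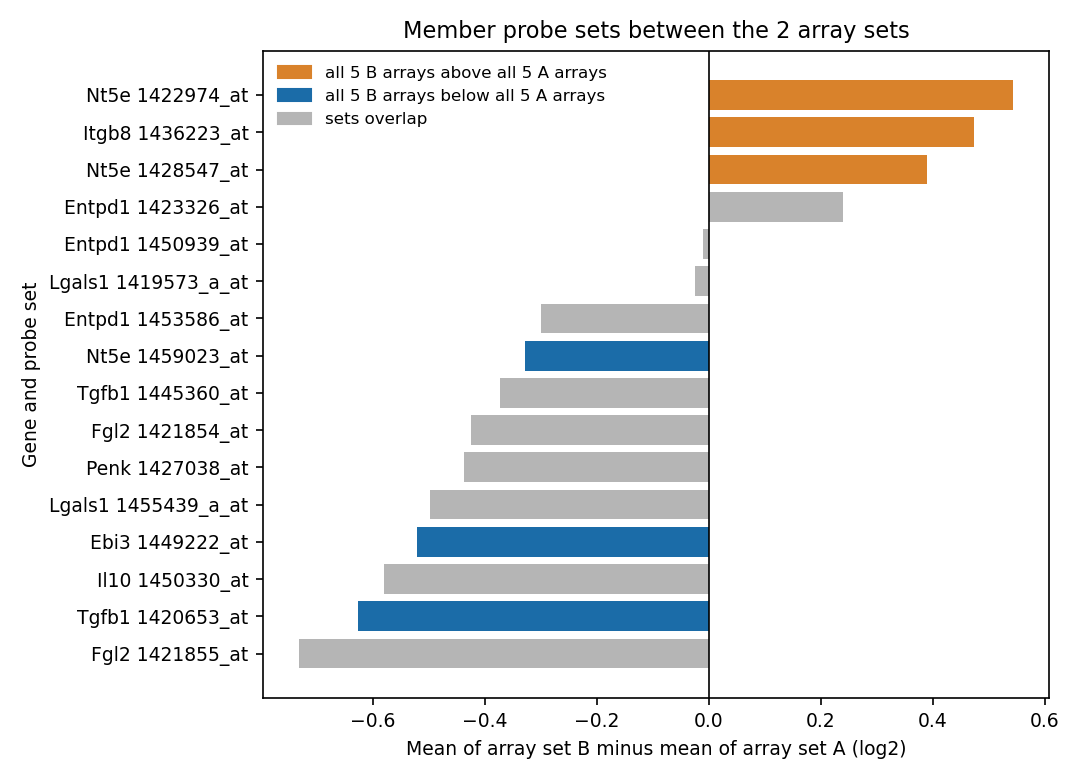
Mean of the 5 set B arrays minus mean of the 5 set A arrays, on the log2 scale, for each of the 16 mediator probe sets. Orange bars mark probe sets with every B array above every A array, blue bars the reverse, and grey bars overlap. The values run from -0.73 (Fgl2 1421855_at) to 0.54 (Nt5e 1422974_at), and the probe sets of Nt5e fall on both sides of 0.

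The genes that act with the mediators were counted from lists chosen with earlier results of these data known, and 0 genes of any list were called for me against WT. Among all genes 50.2% were higher in me, 0.874% had an unadjusted p under 0.05 in the fit without a block, and 5.05% in the blocked one. Of 20 genes that store, activate or read transforming growth factor beta, 7 were higher and 13 lower, with a median difference of -0.05 (log2), and 2 had an unadjusted p under 0.05. These were Tgfbr3, the co-receptor betaglycan, at -0.48 ± 0.20, and Skil, a repressor of SMAD transcription factors, at -0.38 ± 0.17, with unadjusted p of 0.0424 and 0.0463 (adjusted p 1.00, limma). Both had all me arrays below all WT arrays, with means of 8.14 ± 0.07 in me and 8.62 ± 0.29 in WT for Tgfbr3, and 10.72 ± 0.15 in me and 11.10 ± 0.21 in WT for Skil (SD, n = 3 and 4). The type I receptor Tgfbr1 differed by -0.26 ± 0.14 and the protease Mmp14 by -0.16 ± 0.10.

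Of 14 genes of the interleukin 10 and 12 families, their receptors and regulators, 9 were higher and 5 lower, with a median of 0.06 and 0 under 0.05. The kinase Tyk2 differed by 0.23 ± 0.15, the interleukin 27 receptor Il27ra by 0.17 ± 0.12, and the Il10-regulating transcription factors Maf and Prdm1 by 0.27 ± 0.29 and 0.33 ± 0.35. Of 11 measured genes of nucleotide and adenosine handling, 8 were higher and 3 lower, with a median of 0.05. None was under 0.05 without a block and 3 were with it. In that blocked fit Ada was -0.18 ± 0.05, Adk -0.20 ± 0.06 and Entpd3 0.23 ± 0.09 (adjusted p 0.880, 0.989 and 0.989, limma). The next 4 genes were not under 0.05, and their values are from the fit without a block. The peptidase Dpp4 differed by 0.28 ± 0.22 and the nucleoside transporter Slc29a1 by 0.07 ± 0.13. The purine nucleoside phosphorylase Pnp differed by 0.10 ± 0.17 and the adenosine receptor Adora3 by 0.05 ± 0.10. Of 12 epidermal growth factor ligands, receptors and sheddases, the family of amphiregulin, 4 were higher and 8 lower, with Adam17 at 0.21 ± 0.17, Btc at -0.09 ± 0.15, Ereg at -0.04 ± 0.07 and Egf at -0.05 ± 0.12.

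The list of 10 galectins, fibrinogen-like genes and low-affinity Fc receptors leaves out the mediators Fgl2 and Lgals1. As given above, Fgl2 was lower in me than in WT, at -0.28 and -0.31, and Lgals1 higher, at 0.15 and 0.13. The 10 listed genes were all higher in me with no block, or 9 of 10 without normalisation. Their median was 0.09 with no block, and 0 had an unadjusted p under 0.05. Some of these differences were small, such as 0.01 ± 0.14 for Lgals2 and 0.03 ± 0.07 for Lgals12. With array set as a block 8 of 10 were higher. Lgals3, which encodes galectin 3, differed by 0.29 ± 0.20 with no block and by 0.22 ± 0.08 with the block, where its unadjusted p was 0.0296. Fcgr3 differed by 0.13 ± 0.10, Fgl1 by 0.13 ± 0.16 and Lgals9 by 0.21 ± 0.27. Of 9 opioid precursors, processing enzymes and receptors, the pathway of Penk, 2 were higher and 7 lower, with a median of -0.02. The delta receptor Oprd1 differed by -0.10 ± 0.10, the precursors Pnoc and Pdyn by -0.04 ± 0.06 and -0.02 ± 0.06, and the convertase Pcsk1 by -0.26 ± 0.39.

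Of 8 cytolytic effectors, a contact-dependent route of suppression, 4 were higher and 4 lower. Without a block 1 had an unadjusted p under 0.05, beside 0.874% of all genes (limma). With array set as a block 3 did, beside 5.05% of all genes, and 0 were called. Srgn, the proteoglycan that packs granule proteins, averaged 13.32 ± 0.02 in me and 13.09 ± 0.13 in WT (SD, n = 3 and 4) with no overlap, and differed by 0.23 ± 0.08 with an unadjusted p of 0.0190 (adjusted p 1.00, limma). Gzmk differed by 0.40 ± 0.18, Gzmb by 0.60 ± 0.36 and Fasl by -0.15 ± 0.09. Of 10 effector and tissue Treg genes, 7 were higher and 3 lower, with a median of 0.15. The Helios gene Ikzf2 differed by 0.18 ± 0.11, Icos by 0.32 ± 0.23 and Batf by 0.19 ± 0.15. Klrg1, an inhibitory receptor of effector cells, differed by 0.77 ± 0.57, or by 0.55 ± 0.24 in the blocked fit.

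No gene of the marker lists was called in these comparisons, and the summed levels are given for all arrays of each genotype. The summed normalised intensity of 8 Treg markers was 14951 to 17674 in me, 13550 to 15402 in he and 12760 to 14539 in WT, so all me arrays were above all WT arrays. Of these genes 7 of 8 were higher in me than in WT, or 6 of 8 without normalisation, and Il2ra was lower, at -0.23 ± 0.12. CD4 T cell markers separated in the same way, at 10210 to 11580 in me, 9642 to 10833 in he and 9565 to 10098 in WT, with 5 of 7 genes higher. For neutrophil markers it was 1563 to 2234 in me, 1541 to 1956 in he and 1499 to 1821 in WT, with 9 of 10 genes higher in me than in WT, or 7 of 10 without normalisation. Macrophage and monocyte markers summed to 6437 to 7983 in me, 6053 to 7928 in he and 5552 to 7226 in WT, with 10 of 12 genes higher. Plasma cell markers summed to 3865 to 5687 in me, 3717 to 4521 in he and 3863 to 4639 in WT, with 7 of 8 higher, or 5 of 8 without normalisation. B cell markers summed to 1426 to 1863 in me, 1304 to 1670 in he and 1292 to 1786 in WT, with 5 of 8 higher. Markers of innate lymphoid cells, mast cells and basophils summed to 3180 to 3900 in me, 3883 to 4150 in he and 3846 to 4129 in WT, with 8 of 10 genes higher. Array intensities have no true 0, and no marker list was at 0 in any array. The ratio of 3' to 5' Gapdh probe sets, a sign of RNA length, was 9.92 to 13.8 in me, 7.88 to 9.71 in he and 7.84 to 9.53 in WT, with me 3 the highest. The part of other cells and of RNA length in the Penk, Ebi3 and Fgl2 differences was not tested.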

How the data were processed

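The authors deposited linear intensity values for 45101 probe sets in 10 arrays. How these were summarised, background-corrected and scaled is not given in the sources used here. Values were transformed as log2(intensity + 32) and quantile normalised between arrays, since array medians differed by over 0.1. The 64 control probe sets were then left out. In the platform annotation 34945 probe sets have 1 gene, 932 have several and 9160 have none. Where 1 probe set stands for a gene, it is the one with the highest mean over all arrays. Levels of different probe sets are not comparable.

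Differences were fitted with limma 3.58.1 in R 4.3.3 (lmFit, eBayes) on all 10 arrays with 7 residual degrees of freedom, or 6 with array set as a block, and adjusted by Benjamini-Hochberg over 45037 probe sets. The r between deviations of replicates with the same number ran from -0.87 to 0.94. It followed array set, at 0.90 to 0.94 among the replicate 1 arrays, all of set A, and negative for arrays of different sets. It therefore cannot tell whether the numbers pair samples. The procedure was tested on simulated data. The number of arrays limits the precision.

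The mediators, the lists of genes and markers (185 of 202 entries measured) and the array sets were chosen with earlier results of these data known. Named genes are all mediators, the 4 genes of each pathway list with the smallest unadjusted p for me minus WT, and Ptpn6, Foxp3, Il2ra and Cd4 as checks. Ada, Adk and Entpd3 are named for an unadjusted p under 0.05 in the blocked limma fit. Cd4 averaged 9.54 ± 0.13 in me, 9.38 ± 0.17 in he and 9.40 ± 0.14 in WT (SD). Blocks for set with sex, and me 3 counted in set B, were added after the data were examined. Other settings were no normalisation, centring on the array median, pseudocounts of 1 and 128, a filter on low values, a trended robust prior, fits of 2 groups alone, and each array left out in turn. Loci and promoters are RefSeq's on GRCm38.p6.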

Additional observations from a re-analysis of the deposited data

Results flagged for a closer look

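Of the 16 mediator probe sets, whose WT arrays alone form a group large enough for the outlier test, 1 had an array far from the rest. The Entpd1 probe set 1450939_at read 7.77 in WT 3, against 7.88 to 7.90 in the other WT arrays, a gap of 0.853 of the group's range. Chance gives such a gap in about 1 of 20 groups. This array lies on the low side of the comparison in which he was higher than WT at this probe set.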

How the results depend on the processing

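No mediator, taken at its brightest probe set, passed an adjusted p of 0.05 in any setting run, and the smallest adjusted p was 0.821 for me minus WT, 0.702 for he minus WT and 0.654 for me minus he. Of 216 recomputed me minus WT values, within-set differences included, 185 kept their direction. Of 96 values for Penk, Ebi3, Fgl2 and Itgb8 together in each other comparison, 82 did for he minus WT and 95 for me minus he. Leaving out an array of the genotype not compared cannot move a difference. Nor can the filter on low values, the trended robust prior or the fits of 2 groups alone, so these counts are partly fixed in advance. The sign held in all settings run for Penk, Ebi3, Fgl2 and Itgb8 in me minus WT, where leaving out 1 array gave 0.28 to 0.65, 0.15 to 0.51, -0.53 to -0.02 and -0.29 to -0.05 (log2).

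Signs turned for the other 5 mediators in me minus WT. With the replicate block Tgfb1 was -0.049 and Entpd1 0.028, and with array set as a block -0.065 and 0.033. Without normalisation Tgfb1 was -0.022, Nt5e -0.011 and Lgals1 -0.10. Centring on the median gave Tgfb1 -0.0019 and Lgals1 -0.083. With set and sex, Il10 was -0.031, Tgfb1 -0.10 and Entpd1 0.037, and with me 3 in set B, Nt5e was -0.039. Over the mean of all probe sets Entpd1 was 0.059 and Nt5e -0.079. Within set A, Il10 was -0.23 and Tgfb1 -0.13, and within set B, Entpd1 was 0.086 and Lgals1 -0.014. For he minus WT, Penk was 0.052 with set and sex, and Fgl2 was 0.13 with array set, 0.24 with set and sex and 0.14 with me 3 in set B. Within sets, he minus WT was 0.045 and 0.22 for Fgl2 (A and B), 0.00039 for Ebi3 (B) and -0.020 for Itgb8 (A). Leaving out 1 array, me minus WT ran from -0.10 to 0.30 for Il10, -0.13 to 0.13 for Tgfb1, -0.10 to 0.069 for Entpd1, -0.15 to 0.16 for Nt5e and -0.030 to 0.35 for Lgals1. For he minus WT it ran from -0.29 to 0.25 for Fgl2 and -0.10 to 0.25 for Itgb8, and for me minus he from -0.51 to 0.013 for Fgl2. The cause of these turns was not tested.

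Probe sets called over the whole table for me minus WT were 3 with array set as a block and 0 to 2 with 1 array left out (2 without me 2), against 0 with no block, 0 with me 3 counted in set B and 0 with set and sex. For me minus he they were 0 to 2 (2 without me 2). The replicate block, whose numbers are not known to pair the samples, gave a Penk difference of 0.59 (me minus WT, log2) and changed no mediator's call. Signal over background limits Il10 and the dimmer Tgfb1, Fgl2 and Nt5e probe sets, which lay below the array median in some arrays.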
